A study of Sus scrofa with 42 samples.

Results

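This account covers 10 factors that connect the Hippo pathway with the trophectoderm, the outer cell layer of the blastocyst, in pig cleavage embryos. The genes were chosen by name: CDX2, GATA2, GATA3, GATA6, TEAD1, TEAD4, TFAP2C, YAP1, WWTR1 and LATS1. Of these, 9 were found among the 15351 genes of the expression table, and CDX2 was not analysed here. 6 of the 9 (GATA3, GATA6, TEAD1, TFAP2C, YAP1 and LATS1) had at least 1 FPKM (fragments per kilobase of gene, scaled to the reads of the cell) in at least 3 cells and were tested, while GATA2, TEAD4 and WWTR1 are given as values.

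The study sequenced 42 single cells from 20 pig embryos to compare embryos of in vitro fertilization (IVF) with those of parthenogenetic activation (PA) through the first cleavages. Oocytes came from the ovaries of gilts and were matured in vitro, so the 8 groups shared these and the same culture medium. IVF oocytes were incubated with sperm, and PA oocytes received electric pulses followed by 6-dimethylaminopurine and cytochalasin B, so that a PA embryo has no paternal genome. Counted from the end of the sperm incubation or from the pulse, embryos were collected at 19 h when they had 1 cell, at 27 h with 2, at 48 h with 4 and at 72 h with 8. Each method had 3 embryos at the 1-cell stage, 3 embryos with 2 blastomeres each at the 2-cell stage, and 3 embryos with 9 blastomeres in all at the 4-cell stage. The 8-cell stage was represented by 3 blastomeres of 1 embryo in each method, so neither 8-cell group has a replicate embryo. From Y-chromosome expression, the paper called 2 of 3 IVF 4-cell embryos and the IVF 8-cell embryo male, and all PA embryos female. Sex and method thus cannot be told apart at the 8-cell stage and overlap in part at the 4-cell stage. The part of sex was not tested.

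In mammalian embryos, the kinase LATS1 phosphorylates the coactivators YAP1 and WWTR1 (also called TAZ) and keeps them out of the nucleus. Where that signal is weak, as in outer cells, YAP1 and WWTR1 enter the nucleus and act with TEAD proteins such as TEAD4, which bind DNA, to turn on trophectoderm genes such as CDX2 and GATA3. TFAP2C, together with GATA2 and GATA3, belongs to the regulators of the trophoblast, and GATA6 is best known from the hypoblast (primitive endoderm). Much of the RNA of the first cleavages comes from the oocyte, and it is lost as the embryo begins to transcribe its own genome.

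The 300 bases before the gene start were searched for the 6 tested members and are shown for YAP1, GATA6 and GATA3, the 3 that held a TEAD core, with the more upstream of the starts in the deposited table and in RefSeq taken (Sscrofa11.1, sequence from RefSeq, 5′ to 3′ on the strand of the gene). Capitals mark the letters GGAATG, a core of sites bound by TEAD proteins, on either strand. The windows were chr9:32810931-32811230 (+) for YAP1, chr6:107282409-107282708 (+) for GATA6 and chr10:63397978-63398277 (-) for GATA3. For GATA3 the RefSeq start at 63397977 was used, well upstream of the start of the deposited gene at 63390560. The bases directly before that deposited start were not searched.
YAP1: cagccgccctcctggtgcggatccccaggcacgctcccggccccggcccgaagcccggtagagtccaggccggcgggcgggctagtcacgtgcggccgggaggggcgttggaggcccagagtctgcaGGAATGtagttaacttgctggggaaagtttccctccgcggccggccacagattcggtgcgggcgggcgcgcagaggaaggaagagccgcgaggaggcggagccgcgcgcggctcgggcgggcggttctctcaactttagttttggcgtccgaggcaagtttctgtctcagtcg
GATA6: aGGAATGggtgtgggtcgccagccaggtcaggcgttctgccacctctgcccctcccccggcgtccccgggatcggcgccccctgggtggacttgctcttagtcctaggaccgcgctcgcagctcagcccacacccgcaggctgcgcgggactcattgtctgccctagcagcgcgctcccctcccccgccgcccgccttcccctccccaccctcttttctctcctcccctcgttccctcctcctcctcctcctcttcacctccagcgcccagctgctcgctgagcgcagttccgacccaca
GATA3: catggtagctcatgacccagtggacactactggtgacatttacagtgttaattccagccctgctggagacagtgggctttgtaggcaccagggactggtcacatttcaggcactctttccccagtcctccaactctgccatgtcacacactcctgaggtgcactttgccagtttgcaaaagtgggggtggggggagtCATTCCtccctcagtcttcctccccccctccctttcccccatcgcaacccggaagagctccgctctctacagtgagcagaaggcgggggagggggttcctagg
YAP1, GATA6 and GATA3 each held GGAATG 1 time, and the windows of the other 3 tested members did not hold it. Among 15322 genes with a complete window, 12.8% held these letters at least 1 time. A GATA core (AGATAA, either strand) was in 11.0% of all windows and in none of the 6, and a TFAP2 core (GCCNNNGGC, either strand) was in 22.1% of all windows and in 1 of the 6, that of TEAD1, which is not shown. The motifs were searched separately, and no matches overlapped in the windows shown. The share of G and C was 69.3% for YAP1, 69.7% for GATA6 and 57.3% for GATA3, against a median of 55% over all windows. These matches describe the letters of the windows and say nothing of binding.

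Depth, as reads recovered from the FPKM steps, ran from 4049921 to 14725492 in a cell (median 10035497), and 3481 to 9453 genes were above 0. Mitochondrial mRNAs took 6.07% to 63.0% of the summed FPKM, with 6.07% to 19.2% in 1-cell embryos and 26.9% to 53.6% in 8-cell blastomeres. Of 13 markers of oocytes and cleavage embryos, 12 were in the table, and their summed level was 1018 to 1938 FPKM in 1- and 2-cell cells, 305 to 1760 FPKM in 4-cell blastomeres and 2.22 to 197 FPKM in 8-cell blastomeres. Of 16 markers of cumulus and granulosa cells, 8 were in the table, summing to at most 30.2 FPKM in a cell, with GJA1 at 0 in all cells and INHBA above 0 in 1 cell. Of 7 sperm markers, only AKAP4 was in the table. It was at 0 in all IVF 1- and 2-cell cells and above 0 in 9 cells, with up to 1.82 FPKM in an IVF 4-cell blastomere and up to 9.02 FPKM in a PA 4-cell blastomere, although PA embryos received no sperm. The part of these differences in the results was not tested. PA 4-cell blastomeres 1-4 and 2-1 nearly repeated PA 2-cell blastomeres 1-2 and 2-1 (Pearson's r 0.999 in both pairs over log2 values, with 0.908 the next highest of all pairs of cells), so the members' main results that rest on them are given with and without them.

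**Figure D1:**
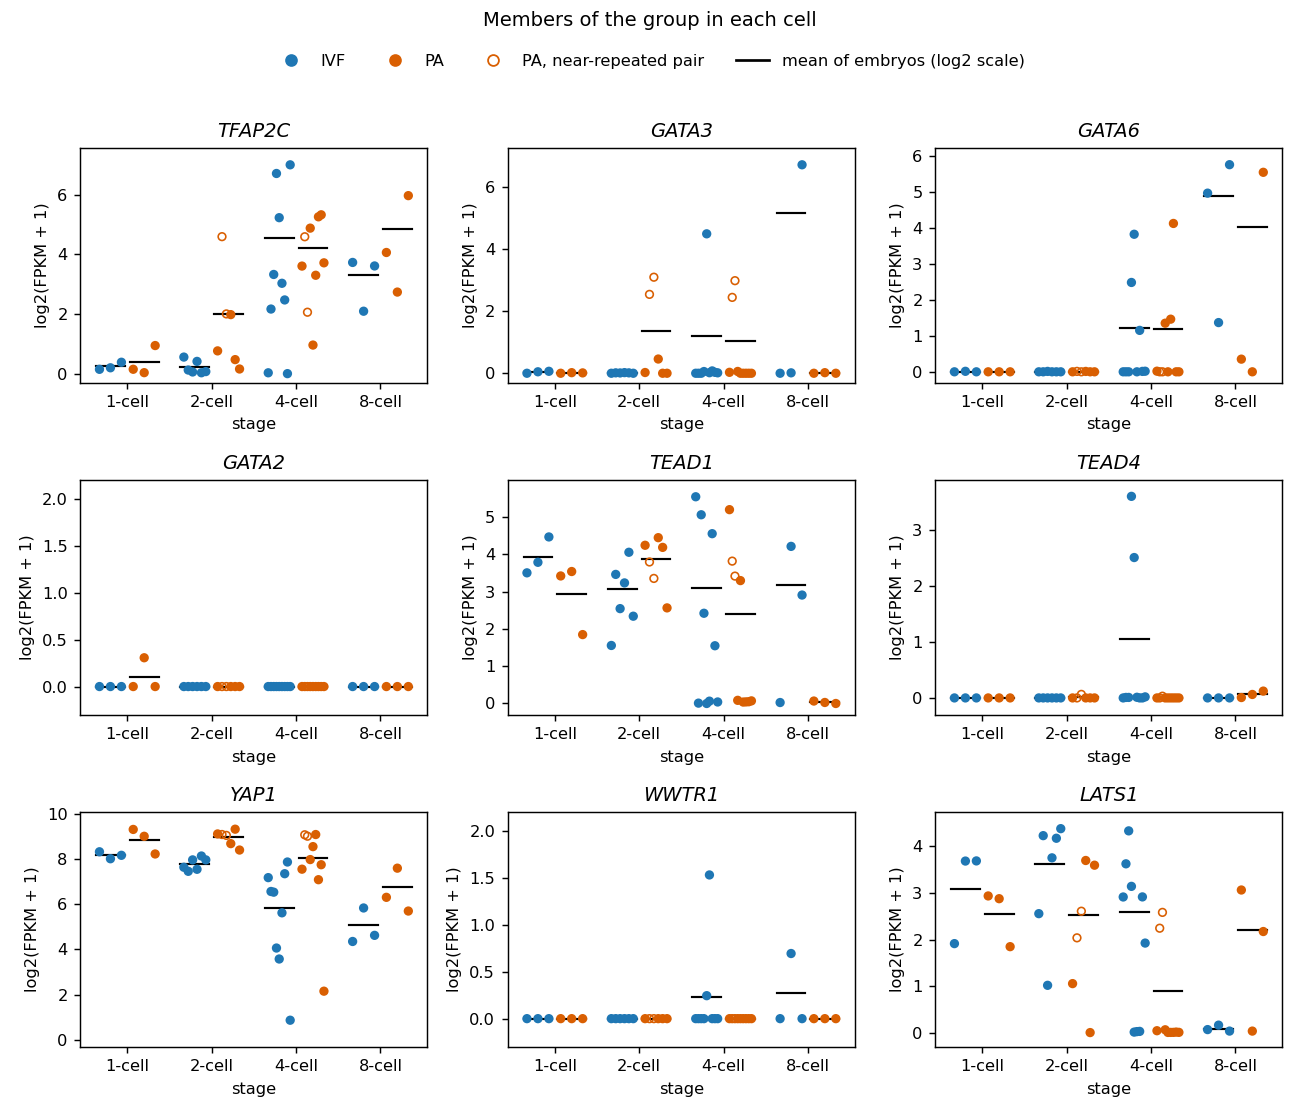
Level of each of the 9 genes, as log2(FPKM + 1), in each of the 42 cells by stage (x axis) and method (blue IVF, orange PA; open circles, the near-repeated PA cells). Black bars are means over embryos; YAP1 was high in 1- and 2-cell cells, TFAP2C came up at the 4-cell stage, and GATA3, GATA6 and TEAD4 were high in few blastomeres.

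TFAP2C, a transcription factor of the AP-2 family needed in the trophoblast, rose between the 2- and the 4-cell stage. The gene lies at chr17:57164371-57175315 on the plus strand (ENSSSCG00000007499). In IVF embryos its level was 0.106, 0.146 and 0.303 FPKM at the 1-cell stage and 0.279, 0.184 and 0.0349 FPKM at the 2-cell stage, as means over the blastomeres of each embryo. It was 4.19, 70.5 and 34.9 FPKM in the 3 IVF 4-cell embryos, so each of these lay above every earlier IVF embryo, as for 3.55% of tested genes. The PA embryos had 0.107, 0.0231 and 0.922 FPKM at the 1-cell stage, 11.95, 2.98 and 0.2499 FPKM at the 2-cell stage, and 17.2, 10.4 and 29.6 FPKM at the 4-cell stage. PA 2-cell embryo 1 therefore overlapped the PA 4-cell embryos, through a single blastomere (1-2) with 23.2 FPKM, which is a member of a near-repeated pair.

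The rise of TFAP2C from the 2- to the 4-cell stage was 3.28 on the log2 scale of FPKM + 1 (SE 0.66), as the mean of IVF and PA, and it passed the test (adjusted p = 0.0086, limma over all tested genes). It was 1 of the 6 tested members called at this step, where 4.14% of the 8116 tested genes were called in either direction and 1.79% as a rise (a call needs an adjusted p under 0.05 and at least a 2-fold change). Within IVF the rise was 4.35 (SE 0.93, adjusted p = 0.0283), where 1.11% of genes were called and 0.616% rose, and this call was lost without any 1 of the IVF 2-cell embryos and without IVF 4-cell embryo 2 or 3 (adjusted p 0.0680 to 0.109). Within PA it was 2.21 (SE 0.93, adjusted p = 0.386), where 0.394% of genes were called. The difference between these rises was 2.14 (SE 1.31, adjusted p = 0.893), so a larger rise in IVF was not shown. Without PA 4-cell-1-4 and 2-1 the mean rise was 3.23 (adjusted p = 0.0039), and without PA 2-cell-1-2 and 2-1 it was 3.77 (adjusted p = 0.0017). When only the compared groups entered the fit, the adjusted p was 0.0811. At the 8-cell stage the IVF blastomeres had 12.3, 3.27 and 11.2 FPKM and the PA blastomeres 15.8, 5.67 and 61.9 FPKM, and the step from 4 to 8 cells was not called (log2 change -0.31, SE 0.93, adjusted p = 0.885).

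GATA6, a zinc-finger factor of endoderm lineages, rose from the 4- to the 8-cell stage. It lies at chr6:107282849-107314644 on the plus strand (ENSSSCG00000003702). All 18 cells of the 1- and 2-cell stages were below 0.01 FPKM, which stood for at most 1 read in a cell. In 4-cell blastomeres it was 4.61, 13.2 and 1.23 FPKM in IVF blastomeres 2-2, 2-3 and 3-2, and 1.56, 1.76 and 16.5 FPKM in PA blastomeres 2-2, 2-4 and 3-1, while the other 12 were below 0.02 FPKM. The 3 IVF 8-cell blastomeres held 30.5, 1.59 and 53.5 FPKM, and those of PA held 0.277, 0 and 46.1 FPKM. Most of the 8-cell level thus came from 2 IVF blastomeres and 1 PA blastomere.

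As the mean of IVF and PA, GATA6 rose by 3.25 (SE 0.75, adjusted p = 0.0060) from the 4- to the 8-cell stage and was the only tested member called there. At this step 12.6% of tested genes were called and 7.27% rose. The rise was 3.65 in IVF (SE 1.06, adjusted p = 0.0414, where 6.97% of genes were called and 3.72% rose) and 2.85 in PA (SE 1.06, adjusted p = 0.106, where 9.99% were called), and these differed by 0.80 (SE 1.495, adjusted p = 1). The IVF call was lost in 18 of 27 alternative settings. Each 8-cell value is 1 embryo, assumed to vary as the embryos of the other groups do. The shared spread includes the 1- and 2-cell groups, where the SD of GATA6 was at most 0.0055 FPKM. At the 4-cell stage its SD was 5.07 FPKM in IVF and 2.97 FPKM in PA. When only the compared groups entered the fit, the adjusted p of the mean rise was 0.321. From the 2- to the 4-cell stage the change was 1.21 (SE 0.53, adjusted p = 0.197).

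GATA3, a trophectoderm factor downstream of TEAD4 in the mouse, was high in single blastomeres. It lies at chr10:63367663-63390560 on the minus strand (ENSSSCG00000011125). It reached 103 FPKM in IVF 8-cell-1-3, whose sisters had 0 and 0.00932 FPKM, and 21.4 FPKM in IVF 4-cell-2-3, whose sister 2-2 had 0.0389 FPKM. In PA it was 4.81, 7.51 and 0.373 FPKM in 2-cell blastomeres 1-2, 2-1 and 2-2, and 4.43 and 6.88 FPKM in 4-cell blastomeres 1-4 and 2-1, the near-repeats of the first and the second of these. The other 35 cells were below 0.06 FPKM. All 3 PA 8-cell blastomeres were at or below 0.0129 FPKM, 1 read.

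Within IVF the change of GATA3 from the 4- to the 8-cell stage was 3.95 (SE 1.14, adjusted p = 0.0402), which rests on 1 blastomere of 1 embryo and was lost in 15 of 27 alternative settings. In PA it was -1.04 (SE 1.14, adjusted p = 0.749), and the difference between them was 4.99 (SE 1.61, adjusted p = 0.110). Averaged over blastomeres on the log2 scale instead, the IVF change was 1.47 and was not called (adjusted p = 0.383). As the mean of IVF and PA the change was 1.46 (SE 0.80, adjusted p = 0.288), and 2.05 without IVF 4-cell embryo 2, the embryo of blastomere 2-3 (adjusted p = 0.0180, called). The PA 4-cell mean of 1.32 FPKM was 0.0116 FPKM without the near-repeated cells.

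GATA2, a GATA factor of the trophoblast, was above 0 in 1 of 42 cells, with 0.237 FPKM in PA 1-cell-2. It lies at chr13:71984067-71999729 on the plus strand (ENSSSCG00000011618) and shares this interval with EEFSEC on the minus strand. GATA4, the 1 other GATA or TFAP2 gene tested of 7 chosen, was not called at any step. No source used here states whether reads were counted by strand.

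TEAD1, a DNA-binding partner of YAP1, was present in every cell of the 1- and 2-cell stages, and TEAD4, the TEAD protein tied to the trophectoderm, was above 0.1 FPKM in 1 embryo. TEAD1 lies at chr2:46400066-46670472 on the minus strand (ENSSSCG00000013399). Its level was 10.3, 12.8 and 21.1 FPKM in the IVF 1-cell embryos and 9.69, 10.6 and 2.60 FPKM in the PA 1-cell embryos. At the 2-cell stage the IVF embryos had 5.97, 6.61 and 9.83 FPKM and the PA embryos 15.4, 15.0 and 11.0 FPKM, so that each IVF embryo lay below each PA embryo, as for 3.04% of tested genes (difference -0.82, SE 0.96, adjusted p = 0.995).

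At the 4-cell stage TEAD1 was either present or nearly absent in a blastomere. In all 18 cells of the 1- and 2-cell stages it had over 100 reads. Of 18 4-cell blastomeres, 9 had over 100 reads and 9 had at most 8 reads, with none between. IVF embryo 1 held 45.6, 0.00662 and 32.3 FPKM in its 3 blastomeres, and IVF embryo 3 held 0.0443, 22.5, 1.92 and 0.0286 FPKM in its 4. PA 4-cell embryo 3 had 0.0300, 0.0329 and 0.05001 FPKM in its 3 blastomeres, and the 3 PA 8-cell blastomeres had 0.0466, 0.0191 and 0 FPKM, against 0.0181, 17.5 and 6.50 FPKM in IVF. None of the steps was called (mean of IVF and PA -0.72, SE 0.68, adjusted p = 0.569 from 2 to 4 cells, and -1.14, SE 0.96, adjusted p = 0.518 from 4 to 8 cells). Without PA 4-cell-1-4 and 2-1 the PA 4-cell mean of 9.68 FPKM was 12.9 FPKM, and the changes were -0.72 (adjusted p = 0.538) and -1.15 (adjusted p = 0.593).

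TEAD4 lies at chr5:67124726-67194381 on the minus strand (ENSSSCG00000000736). It had 11.2 and 4.71 FPKM in IVF 4-cell blastomeres 2-2 and 2-3, both cells of this embryo analysed here. The other 40 cells were at or below 0.0884 FPKM, and 31 were at 0. The 2 blastomeres with TEAD4 were among the 3 IVF 4-cell blastomeres with GATA6 above 1 FPKM, and 2-3 was the IVF 4-cell blastomere with GATA3.

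YAP1, the coactivator that carries the Hippo signal to TEAD proteins, was by far the most abundant member per length. It lies at chr9:32811231-32925606 on the plus strand (ENSSSCG00000031429). By group mean it ranked 50th (IVF) and 27th (PA) of all 15351 genes at the 1-cell stage, and 726th and 216th at the 8-cell stage. IVF embryos had 318, 256 and 285 FPKM at the 1-cell, 186, 216 and 263 FPKM at the 2-cell and 109, 13.3 and 111 FPKM at the 4-cell stage. PA embryos had 630, 511 and 297 FPKM, then 544, 466 and 485 FPKM, then 360, 418 and 117 FPKM. In the 8-cell embryos it was 19.4, 56.0 and 23.6 FPKM per blastomere for IVF and 78.0, 192 and 50.9 FPKM for PA. Within each method the 4-cell embryos lay below all 2-cell embryos, as for 14.3% of tested genes in IVF and 8.29% in PA. Without PA 2-cell-2-1, PA 2-cell embryo 2 is its other blastomere with 408 FPKM, which lies below the 418 FPKM of PA 4-cell embryo 2, so that the PA embryos then overlap.

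From the 2- to the 4-cell stage YAP1 changed by -1.45 (SE 0.46, adjusted p = 0.0817) as the mean of IVF and PA, which was not called, with -1.97 (SE 0.65, adjusted p = 0.124) in IVF and -0.93 (SE 0.65, adjusted p = 0.668) in PA. Without PA 4-cell-1-4 and 2-1, which hold 535 and 512 FPKM, the mean change was -1.63 and was called (adjusted p = 0.0319), while it was -1.42 (adjusted p = 0.0905) without their 2-cell counterparts. With IVF 4-cell embryo 1 left out it was -1.70 (adjusted p = 0.0272). Scaled by the median ratio over nuclear genes, the change of YAP1 was 0.77 (adjusted p = 0.369), so its direction depended on the scaling. This scaling moved the median of all genes by 0.54 at this step. It used 1064 genes above 0 in all cells, and its factors ran from 0.0389 to 4.17 between cells. Of 27 alternatives it was the 1 that reversed the direction. FPKM is a share of the reads of a cell, and less YAP1 RNA and more RNA of other genes cannot be told apart. From 4 to 8 cells the change was -0.9996 (SE 0.65, adjusted p = 0.381), which was -1.49 and called without IVF 4-cell embryo 2 (adjusted p = 0.0336) and 0.11 under median-ratio scaling.

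YAP1 was lower in IVF than in PA embryos in group means at every stage. The PA mean was 1.67 times the IVF mean at the 1-cell, 2.25 times at the 2-cell, 3.84 times at the 4-cell (2.96 times without PA 4-cell-1-4 and 2-1) and 3.24 times at the 8-cell stage. The embryos of the methods overlapped at the 1-cell stage, while every IVF embryo lay below every PA embryo at the 2-cell and the 4-cell stage, as did 3.04% of tested genes at each of them. The differences on the log2 scale (IVF minus PA) were -0.68 (SE 0.65, adjusted p = 1), -1.18 (SE 0.65, adjusted p = 0.925) and -2.22 (SE 0.65, adjusted p = 0.116) at the 1-, 2- and 4-cell stage, so none was called, where 0.0493%, 0.0% and 0.554% of tested genes were. By unadjusted p below 0.05, 2 members (YAP1 and LATS1) differed at the 4-cell stage and 0 at the others. The share of all tested genes below this unadjusted p is not given here, so these counts are not read as a result about the members. Averaged over these stages, a comparison added after the data were seen, the difference was -1.36 (SE 0.38, with an unadjusted p = 0.0018 and an adjusted p = 0.139 in limma, where 0.037% of genes were called). It was -1.52 and called without IVF 4-cell embryo 1 (adjusted p = 0.0450), and -2.50 and called under median-ratio scaling (adjusted p = 0.0088). Without PA 4-cell-1-4 and 2-1 the 4-cell difference was -1.87 (SE 0.67, adjusted p = 0.125), with embryos that still did not overlap, and the average over stages was -1.24 (adjusted p = 0.122). With all cells, the 4-cell difference was called without IVF 4-cell embryo 1 (-2.71, adjusted p = 0.0296) and under median-ratio scaling (-4.74, adjusted p = 0.00089).

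WWTR1, the paralog of YAP1, was above 0 in 3 cells: 0.185 FPKM in IVF 4-cell-2-3, 1.89 FPKM in IVF 4-cell-3-1 and 0.618 FPKM in IVF 8-cell-1-2. It lies at chr13:89746016-89889187 on the minus strand (ENSSSCG00000011704), and the 21 PA cells were at 0.

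LATS1, the kinase of YAP1 and WWTR1, was present at the 1- and 2-cell stage and fell to a few reads in many later blastomeres. It lies at chr1:16274843-16321581 on the plus strand (ENSSSCG00000004106), and ENSSSCG00000031644, which overlaps its start on the other strand, was above 0 in 1 cell. The IVF embryos had 2.77, 11.9 and 11.9 FPKM at the 1-cell, 11.3, 6.76 and 18.5 FPKM at the 2-cell and 12.4, 3.92 and 2.35 FPKM at the 4-cell stage. The PA embryos had 6.66, 6.35 and 2.60 FPKM, then 2.09, 8.54 and 5.55 FPKM, then 1.89, 1.26 and 0.00823 FPKM. Each IVF 4-cell embryo lay above each PA 4-cell embryo, as for 9.65% of tested genes.

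In single cells, 17 of 18 cells of the 1- and 2-cell stages had over 100 reads on LATS1, against 8 of 18 4-cell blastomeres, where the other 10 had at most 9 reads. Of the 9 PA 4-cell blastomeres, only 1-4 and 2-1, the near-repeated cells, were above 0.05 FPKM (3.74 and 4.998 FPKM), and without them the PA 4-cell mean of 1.05 FPKM was 0.0197 FPKM. At the 8-cell stage LATS1 was 0.0490, 0.121 and 0.0260 FPKM in IVF blastomeres, all under the 2 highest PA blastomeres, which with the third held 7.37, 3.51 and 0.0258 FPKM. The change from 2 to 4 cells was -1.33 (SE 0.55, adjusted p = 0.178) as the mean of IVF and PA with all cells, and -1.77 (adjusted p = 0.0410) without the near-repeated 4-cell blastomeres, which was called. IVF and PA differed by 1.69 at the 4-cell stage (SE 0.78, adjusted p = 0.341), and by 2.57 without these blastomeres (SE 0.77, adjusted p = 0.0664), which was not called either.

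**Figure D2:**
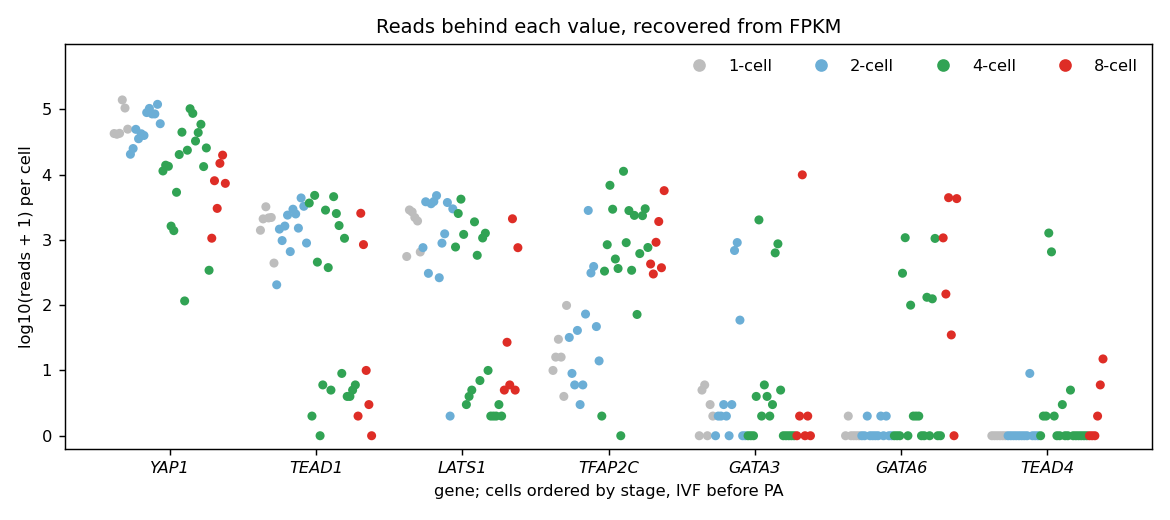
Reads on each gene in each cell, as log10(reads + 1), with cells ordered by stage (colour) from left to right within a gene. Reads were recovered from the FPKM; TEAD1 and LATS1 had over 100 reads or at most 10 reads in each 4-cell blastomere, and YAP1 had over 100 reads in all 42 cells.

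Between the 1- and the 2-cell stage, 0 of the 6 tested members were called in limma as the mean of IVF and PA, and 0 had an unadjusted p below 0.05, where 0.0% of all tested genes were called (0.0986% in PA alone). Their median change was 0.15, against -0.11 over all tested genes. From 2 to 4 cells the median was -0.14 against -0.24, and from 4 to 8 cells -0.45 against -0.29. In no interaction of method with a step was a member called, where 0.0%, 0.0% and 2.86% of tested genes were for the 3 steps. At an unadjusted p below 0.05 in limma there were 0, 0 and 2 members (GATA3 and LATS1). The share of all tested genes at that unadjusted level is not given here for any comparison, so such counts cannot be weighed against it. The comparisons of a step with the next share the stage between them, and all share 1 estimate of the spread.

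**Figure D3:**
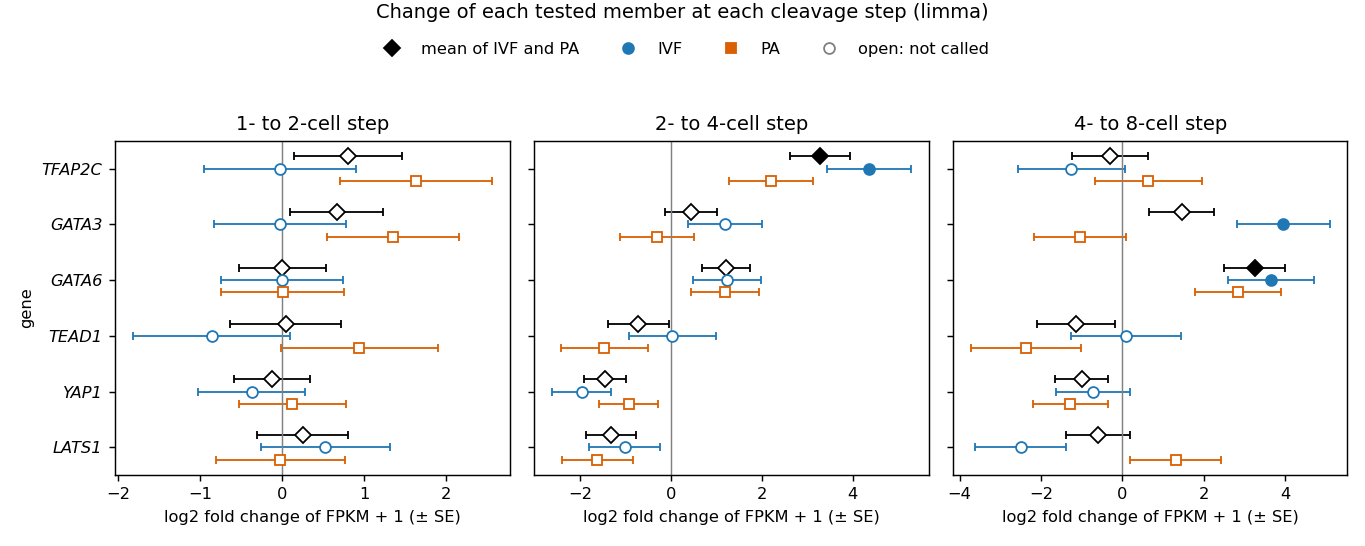
Change of the 6 tested genes at each step between stages, as log2 fold change of FPKM + 1 with its SE (x axis), for the mean of IVF and PA (diamonds), IVF (circles) and PA (squares). Filled symbols were called: TFAP2C from 2 to 4 cells, and GATA6 and (in IVF) GATA3 from 4 to 8 cells.

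Sister blastomeres were alike in YAP1 at the 2-cell stage, and in 1 embryo of each method they were far apart at the 4-cell stage. On the scale of FPKM + 1, sisters differed by at most 1.33-fold in IVF and 1.89-fold in PA 2-cell embryos. At the 4-cell stage the highest and the lowest sister differed by 1.56-, 1.399- and 127-fold in the IVF embryos and by 2.87-, 2.15- and 48.1-fold in the PA embryos, and in each of the embryos with the widest range 1 blastomere lay far below its sisters. IVF embryo 3 held 48.1, 162, 232 and 0.833 FPKM in its 4 blastomeres, and PA embryo 3 held 134, 213 and 3.46 FPKM in its 3. TFAP2C differed by 9.85-, 2.80- and 129-fold between sisters in IVF 4-cell embryos and by 1.98-, 15.2- and 3.06-fold in PA 4-cell embryos.

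In IVF 4-cell embryos, the blastomeres with little YAP1 were those with much TFAP2C. Blastomeres 2-2, 2-3 and 3-4 had 15.7, 10.9 and 0.833 FPKM of YAP1 and 104, 36.6 and 128 FPKM of TFAP2C. The other 6 had 48.1 to 232 FPKM of YAP1 and 0 to 9.05 FPKM of TFAP2C, and the blastomere with the most YAP1 (3-3) was the 1 with TFAP2C at 0. NANOG, a pluripotency factor of the inner cell mass, was 114, 176 and 224 FPKM in the same 3 blastomeres and at most 9.36 FPKM in the other 6. KLF4, also a pluripotency factor, did not separate them. It was 21.2 to 391 FPKM in the 3 (median 226) and 0.137 to 262 FPKM in the other 6 (median 3.65). Over the 9 blastomeres Pearson's r of log2 values of YAP1 and TFAP2C was -0.90 and Spearman's rho -0.92. It was the strongest among all pairs of tested members in these blastomeres, before GATA3 with GATA6 (r 0.80, rho 0.88). The 9 points share 3 embryos, and these values are given as a description.

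In PA 4-cell embryos only blastomere 3-4 had little YAP1 (3.46 FPKM, against 134 to 539 FPKM in the others). This order could therefore hardly be judged there. The blastomeres of its embryo held 12.2 to 39.3 FPKM of TFAP2C. Blastomere 3-4 itself was the lowest of them, with 12.2 FPKM, so the IVF order was not seen within this embryo. Over the 7 PA 4-cell blastomeres that were not near-repeated, r was -0.14 and rho -0.50, and NANOG was 264 FPKM in blastomere 2-3, with 372 FPKM of YAP1. The difference between the methods in this relation was not tested. The 3 IVF blastomeres named had 8351723 to 9422080 reads on genes and 651 to 1345 FPKM of summed oocyte markers, inside the ranges of the other 6 (4399002 to 12795116 reads and 520 to 1760 FPKM). Mitochondrial mRNAs took 29.5% to 44.2% of their FPKM, and 36.4% to 53.4% in the other 6.

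**Figure D4:**
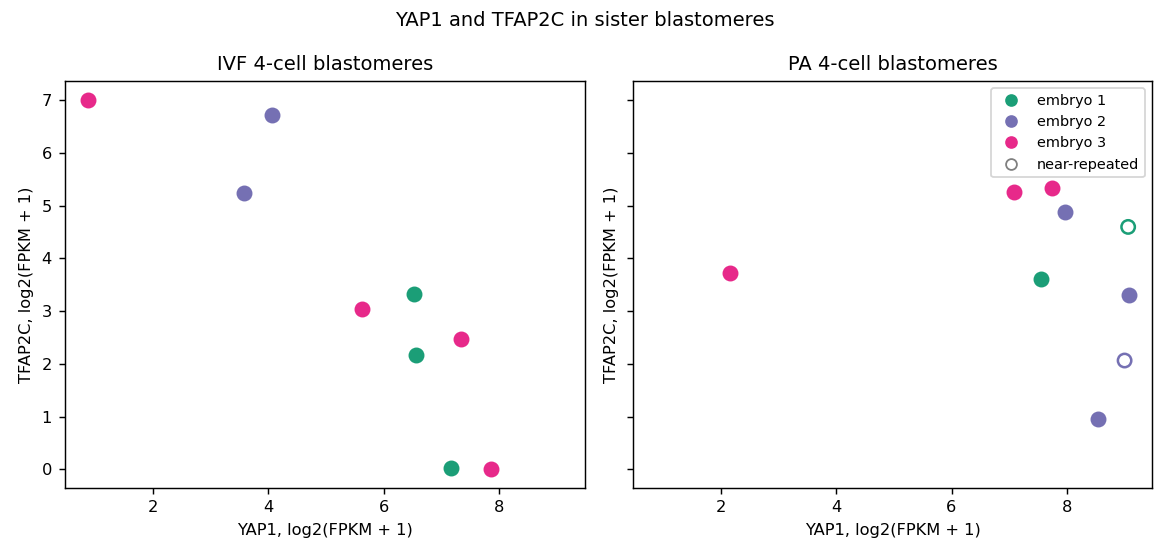
YAP1 (x axis) against TFAP2C (y axis) in each 4-cell blastomere, both as log2(FPKM + 1), with colour for the embryo and open circles for near-repeated cells. On the left (IVF) the 3 blastomeres with at most 15.7 FPKM of YAP1 had at least 36.6 FPKM of TFAP2C. On the right (PA) the lowest YAP1 was 3.46 FPKM and the next 134 FPKM, so this order could hardly be judged. The blastomere with 3.46 FPKM of YAP1 had 12.2 FPKM of TFAP2C, the lowest of its embryo.

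Among the kinases of the Hippo pathway and their activators, 16 of 20 chosen genes were tested. From 4 to 8 cells 1 rose and 3 fell as the mean of IVF and PA, against 7.27% rising and 5.34% falling over all tested genes, with a median of -0.46 against -0.29. WWC2, a relative of KIBRA that activates LATS kinases, rose by 4.08 (SE 1.05, adjusted p = 0.0130), from 2.91 to 38.3 FPKM in IVF and from 11.3 to 116 FPKM in PA. FRMD6, a scaffold protein that activates the pathway, fell by 3.97 (SE 0.88, adjusted p = 0.0043), to at most 0.180 FPKM in each 8-cell blastomere. STK38L (NDR2), a kinase related to LATS1, changed by -3.63 (adjusted p = 0.0036) and MAP4K4, which phosphorylates LATS kinases, by -2.07 (adjusted p = 0.0383), but neither was called without PA 4-cell-1-4 and 2-1. From 1 to 2 and from 2 to 4 cells 0 of the 16 were called in limma, where 0.0% and 4.14% of tested genes were. At an unadjusted p below 0.05 there were 1 and 5 of them.

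Of 18 scaffolds and regulators of LATS kinases or YAP1, 12 were tested, and 1 rose and 1 fell from 4 to 8 cells (median -0.75 against -0.29 over all tested genes). CSNK1E, a casein kinase 1 that marks YAP1 for degradation, rose by 3.21 (SE 0.82, adjusted p = 0.0123), from 10.6 to 76.5 FPKM in IVF and from 15.5 to 164 FPKM in PA. ITCH, a ubiquitin ligase of LATS1, fell by 3.80 (SE 0.59, adjusted p = 0.00017), and it was not called without PA 4-cell-1-4 and 2-1. In the other TEAD genes and TEAD cofactors, 3 of 6 were tested and TEAD2 was called as a rise from 4 to 8 cells (2.21, SE 0.32, adjusted p = 8.1e-05), through 1 PA 8-cell blastomere with 64.2 FPKM whose sisters had 0.0204 and 0 FPKM.

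Of 22 genes known as targets of YAP1 and TEAD proteins, 18 were in the table and 10 were tested. Only ASAP1, a regulator of ARF GTPases, was called, with a fall of 3.11 from 4 to 8 cells (SE 0.67, adjusted p = 0.0036) that was not called without PA 4-cell-1-4 and 2-1. The median change of the 10 was 0.29 from 2 to 4 cells and -0.04 from 4 to 8 cells, against -0.24 and -0.29 over all tested genes. The list shares LATS2 with the kinases, and AMOTL2 and PTPN14 with the scaffolds.

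Of 15 other trophectoderm genes, 9 were in the table and 4 were tested. MSX2, a homeobox factor, rose from 4 to 8 cells (1.94, SE 0.33, adjusted p = 0.0004). It had 11.3, 0.788 and 32.3 FPKM in the IVF 8-cell blastomeres, and was at 0 in all PA 4- and 8-cell blastomeres. The difference between the steps of IVF and PA was 3.88, the same as the step within IVF (3.88). It was called, as were 2.86% of genes in this comparison. Both the rise of MSX2 and this difference rest on 1 IVF 8-cell embryo. Each method had 1 embryo at that stage, so the spread between 8-cell embryos was not measured. A difference between the methods was therefore not shown, despite the call. Of 11 genes of the inner cell mass and hypoblast, 4 were tested. NANOG rose from 2 to 4 cells (4.78, SE 0.86, adjusted p = 0.0047), from 0.0326 to 67.8 FPKM in IVF and from 1.502 to 87.9 FPKM in PA. From 4 to 8 cells 4 of the 11 tested oocyte markers fell, with log2 changes of -5.56 (BTG4), -5.58 (BMP15), -6.999 (KPNA7) and -4.57 (ZP4), and BTG4, an adaptor for mRNA decay, also fell from 2 to 4 cells (-1.46, adjusted p = 0.0133, and 0.10 under median-ratio scaling). Their part in the other changes was not tested. Of the cumulus markers 4 were tested and 0 were called in limma at any of the averaged steps, with 1 at an unadjusted p below 0.05 from 4 to 8 cells.

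**Figure D5:**
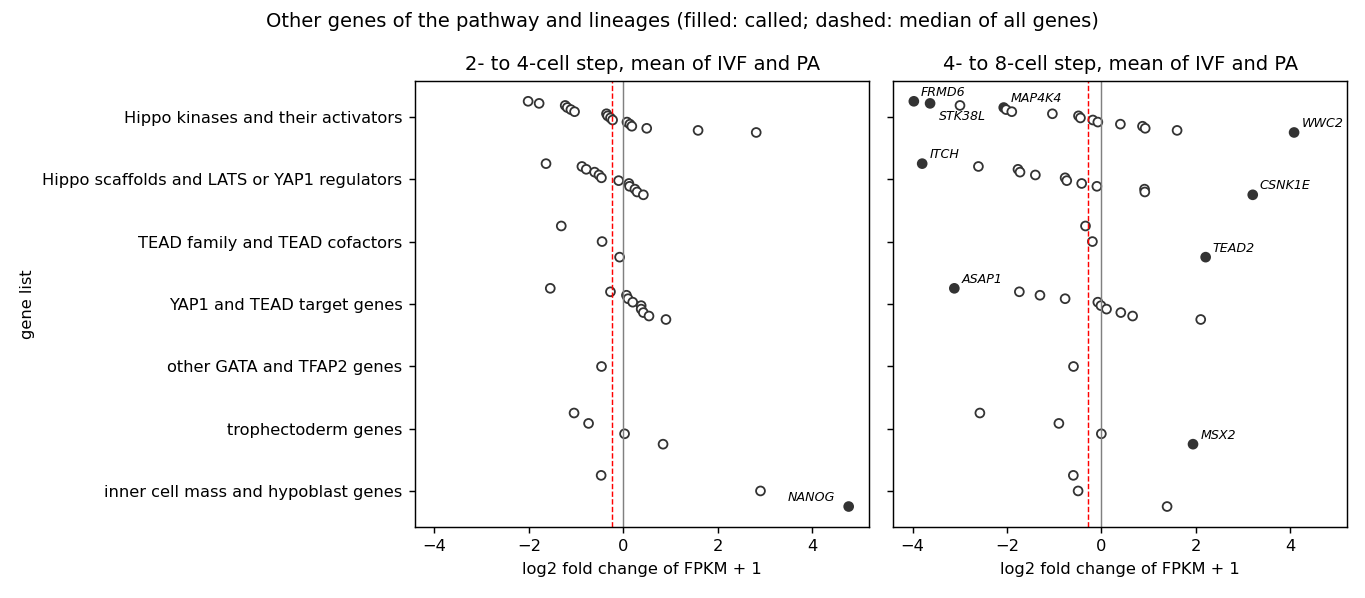
Change of tested genes of the 7 other lists from 2 to 4 cells (left) and from 4 to 8 cells (right), as log2 fold change of FPKM + 1 averaged over IVF and PA. Filled points were called and are named; NANOG is the 1 called from 2 to 4 cells, and 9 of those plotted were called from 4 to 8 cells.

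Over the 20 embryos, the genes whose log2 levels were most like those of each member by Pearson's r were, as a description, MIER3 (0.89) and DYRK1A (0.88) for YAP1. They were KCTD3 (0.88) and SERP1 (0.85) for TEAD1, CLDN1 (0.88) and DGKE (0.85) for LATS1, and the ribosomal protein gene RPLP2 (0.95) for GATA6. GATA3 was most like snoU13 (0.92) and FAM149A (0.88), and TFAP2C was most like ENSSSCG00000028810 (0.94) and ENSSSCG00000034113 (0.93). These embryos share stages, so that genes which rise or fall at the same stage are alike by this measure.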

How the data were processed

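The deposited values are FPKM per gene and cell. Following the published methods, the authors made cDNA from single lysed cells by the Ansuper-seq method, which does not depend on polyA tails, for sequencing with a HiSeq X-Ten. HISAT2 mapped the reads to Sscrofa11.1, StringTie assembled them and HTSeq counted them per gene before scaling to FPKM. The protocol given with the samples describes Trizol extraction of oocytes instead, and the values were taken as those of the published procedure. Versions and strand are not given in the sources used here. FPKM is a share of each cell's reads, so an amount per cell is not measured. Count tests need counts and were not used. All columns of the table were used.

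FPKM was averaged over the blastomeres of each embryo. With log2(FPKM + 1), all 8 groups were fitted together in limma 3.58.1 (R 4.3.3, mean-variance trend) over 8116 genes that reached 1 FPKM in 3 or more cells. Calls needed a Benjamini-Hochberg adjusted p under 0.05 and at least a 2-fold change. The fit was tested on simulated data. Whole reads were recovered from the FPKM steps for 8630 of 8647 genes above 0 in at least 10 cells (tolerance 0.01 reads), and they describe depth without a test, since amplified reads are not independent molecules. Embryos are the replicates, and p-values measure the spread between them. Whether embryos of a group came from separate batches of oocytes is not given in the sources used here.

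The members, gene lists and tests were chosen with earlier results of these data known. All members are named. Of the other lists, the genes called in a step averaged over IVF and PA are named, and for each tested member the 2 genes most like it. KLF4 is named beside NANOG for the IVF 4-cell blastomeres. A few results under this rule are not reported here. Gene names came from the table, and 817 genes without one took a name from a reference table of identifiers. In most groups the embryo numbers did not pair embryos: of 45 pairs with the same number, 4 had a correlation of their deviations above 0.1 (median 0.0083). These included PA 2-cell with PA 4-cell embryos of number 1 (0.355), 2 (0.282) and 3 (0.100). Different numbers in these 2 groups gave -0.266 to -0.0098. Embryos 1 and 2 of both groups hold the near-repeated cells, so they cannot be taken as independent between these stages. Alternatives, their results given below, were another pseudocount (0.1), no filter, 2 other scalings, log2 means over blastomeres, only the compared groups in the fit, embryo number as a block, each embryo left out, and the near-repeated cells left out. Python 3.11.15, numpy 2.4.6, pandas 2.3.3 and matplotlib 3.10.9 were used.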

Additional observations from a re-analysis of the deposited data

Results flagged for a closer look

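Of 24 groups of 6 or 9 blastomeres in which a tested gene was examined on the log2 scale, 4 held a blastomere far from the others by Dixon's test. The groups pool sisters of 3 embryos and some hold mostly values near 0, so the error rate of that test does not apply here. GATA3 was 21.4 FPKM in IVF 4-cell-2-3, against at most 0.0534 FPKM in the other 8. GATA6 was 16.5 FPKM in PA 4-cell-3-1, against at most 1.76 FPKM in the other 8. GATA6 was 0.0078 FPKM in IVF 2-cell-2-1, where the other 5 were at 0, which is 1 read. YAP1 was 3.46 FPKM in PA 4-cell-3-4, below 134 to 539 FPKM in the other 8. Blastomeres of an embryo are not independent, and the cause of these values was not tested.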

How the results depend on the processing

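The rises of TFAP2C from 2 to 4 cells and of GATA6 from 4 to 8 cells, as means of IVF and PA, were called in 26 of 27 alternatives each (changes of 2.84 to 4.69 and 2.08 to 4.78). Both calls were lost with only the compared groups in the fit. That fit holds fewer embryos, and for GATA6 it leaves out the 1- and 2-cell groups, where its level hardly varied. The part of each in the lost calls was not tested. The number of members called from 2 to 4 cells (1) became 2 with log2 means over blastomeres, 0 with only the compared groups and 3 without PA 4-cell-1-4 and 2-1. From 4 to 8 cells it (1) became 2 under median-ratio scaling and 0 with only the compared groups. In IVF it went from 1 to 0 without a filter, 0 under median-ratio scaling, 2 with log2 means and 0 with only the compared groups (2 to 4 cells), and from 2 to 0 with a pseudocount of 0.1, 0 without a filter, 1 with nuclear genes rescaled, 1 with log2 means and 0 with only the compared groups (4 to 8 cells). Median-ratio scaling gave 1 for each PA step after the 2-cell stage, 1 at the 4-cell stage for IVF against PA, and 2 in the interaction at the last step. The shares of all genes called in these comparisons under this scaling are not given here. For the averaged step from 4 to 8 cells it called 1892 genes, against 1023 as reported. Under median-ratio scaling YAP1 changed by 0.77 from 2 to 4 cells and 0.11 from 4 to 8 cells, the reverse of the reported direction. The cause was not tested.

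Leaving out each embryo in turn gave 1 to 2 members called from 2 to 4 cells, 1 to 3 from 4 to 8 cells, 0 to 2 for each of these steps in IVF, 0 to 1 for PA from 4 to 8 cells, the last interaction and the 4-cell comparison of IVF with PA, and 0 to 0 for the other steps and interactions and for IVF with PA at the 1- and 2-cell stages. The difference averaged over stages was examined for YAP1 alone, which was called without IVF 4-cell embryo 1. Of 27 alternatives, the IVF call of GATA6 from 4 to 8 cells was lost in 18, that of GATA3 in 15 and that of TFAP2C from 2 to 4 cells in 8. The named genes of the other lists were called in 17 (MAP4K4) to 27 of them. With the embryo number as a replicate block, the number of members called was 1 from 2 to 4 and 1 from 4 to 8 cells, and the block changed no call of a member. Over all genes, 336 were called from 2 to 4 cells (145 up, 191 down), against 942 without PA 4-cell-1-4 and 2-1 (206 up, 736 down), 1183 with log2 means over blastomeres (161 up, 1022 down), 901 without IVF 4-cell embryo 1 and 155 without IVF 2-cell embryo 1, 576 under median-ratio scaling (526 up, 50 down), 190 without a filter and 27 with only the compared groups. From 4 to 8 cells 1023 were called (590 up, 433 down), against 1892 (1507 up, 385 down) under median-ratio scaling, 946 (468 up, 478 down) with nuclear genes rescaled, 1106 (394 up, 712 down) with a pseudocount of 0.1 and 296 (221 up, 75 down) with only the compared groups. The 8-cell steps have 1 embryo per method, and a gene at 1 read in a cell cannot be told from one at 0.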
